A study of Rattus norvegicus with 34 samples.

Results

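The glycolysis enzymes described here are 10 genes fixed by name: Hk1, Hk2, Pfkm, Aldoa, Gapdh, Pgk1, Eno1, Pkm, Ldha and Ldhb. Their expression was measured in the left ventricle (LV) of the heart and in the peripheral blood mononuclear cells (PBMC, the lymphocytes and monocytes of blood) of rats given doxorubicin (DOX), an anthracycline used against cancer that can damage the heart. Of the 10 genes, 9 had a named probe on the Illumina RatRef-12 BeadChip and Hk1 had none. All 9 passed the filter for expressed probes used here, a dividing value read from the study's gene list. By it 6760 of the 13337 genes named in the annotation used here were tested. Aldoa had 2 probes and each other member 1. The probe with the highest mean over all arrays stood for a gene: ILMN_1351347 for Hk2, ILMN_1364760 for Pfkm, ILMN_1366201 for Aldoa, ILMN_1649859 for Gapdh, ILMN_1369074 for Pgk1, ILMN_1371591 for Eno1, ILMN_1366452 for Pkm, ILMN_1364112 for Ldha and ILMN_1369814 for Ldhb.
The study used female Sprague-Dawley rats, 9 injected intraperitoneally with DOX at 12 mg/kg and 8 with saline, and killed them 48 h later. Each tissue has 17 arrays, of which 9 are labelled DOX and 8 saline. The LV and PBMC come from the same rats. DOX was given as a single injection, diluted in saline. The study sets gene expression after DOX beside that of controls in each tissue, and asks how far the blood follows the heart.

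The PBMC labels and the study's own gene list do not match. The PBMC estimates of that list are the difference between one set of arrays, labelled saline 1 to 8 and DOX 1, and another, labelled DOX 2 to 9. Over the 1998 probes at hand the correlation with the list was 1.0 in this grouping and -0.9811 by label, and 16 of 17 PBMC arrays stand on the side opposite to their label. The first set is called the DOX side and the second the control side here, and the comparisons of PBMC are given by the sides and by the labels, because no label or file states which of them is correct. Several measures moved with the sides as they did in the heart. Of all genes tested 48.2% were lower in DOX hearts and 54.4% on the PBMC DOX side, whereas by label 44.5% were higher. The study reports lymphocytopenia in the rats given DOX. All 8 lymphocyte markers with a probe were lower on the DOX side, and by label 6 of the 8 were higher. S100a8, a neutrophil gene, averaged 2.73 in DOX and 0.80 in saline hearts, and 6.27 on the DOX side and 1.74 on the control side of the PBMC. The Ldha level minus the Ldhb level moved with the labels, by 0.63 (log2) in the heart, -1.34 by the sides and 1.14 by label. With quantile normalization its heart difference was only 0.11 (exact permutation p = 0.695). Which grouping is correct was not tested. In the heart the list and the labels gave the same grouping, with a correlation of 1.0.

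Glycolysis splits glucose into pyruvate in the cytosol and yields ATP without oxygen. Hexokinase (Hk1, Hk2) traps glucose in the cell, phosphofructokinase (Pfkm) commits it to the pathway, aldolase (Aldoa) cleaves the sugar, and Gapdh, Pgk1, Eno1 and pyruvate kinase (Pkm) carry out the later steps, in which ATP is gained. Lactate dehydrogenase, built from Ldha and Ldhb subunits, interconverts pyruvate and lactate. The adult heart lives mainly on fatty acids and takes up lactate as a fuel, and Ldhb is the subunit known from heart muscle, whereas activated lymphocytes depend on glycolysis.

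All levels are log2 intensities over the median of the probes not expressed on the same array, so that 0 is the middle of the background. The arrays differed as a whole between the groups. The median expressed gene lay between 0.222 and 0.701 on the heart DOX arrays and between 1.316 and 1.786 on the heart saline arrays, and between 0.295 and 1.458 on the PBMC DOX side and between 1.702 and 2.169 on the control side. The arrays of the DOX groups (by the sides in PBMC) also hold far fewer distinct values, 2804 to 5746 of 22523 probes, against 22196 to 22419 on those of the control groups, and this difference in export cannot be told apart from treatment. On the PBMC DOX side the arrays labelled saline 6 and DOX 1 stood apart from the rest. Some markers set the labelled tissues clearly apart. Myh6, Tnnt2 and Tnni3, proteins of the cardiac sarcomere, averaged between 5.98 and 8.64 in the heart groups and between -0.08 and 0.05 on the PBMC sides. The T cell genes Cd3d and Cd3g averaged between 5.28 and 6.96 on the PBMC sides and between -0.04 and 0.21 in the heart. Other listed markers were less clear. Actc1 averaged only 0.57 on DOX and 1.20 on saline hearts, and Atp2a2 averaged 2.70 on the PBMC control side. Cd3e and Ptprc averaged 2.39 and 1.66 on the PBMC DOX side and 5.70 and 6.15 on the control side.

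In the heart, 8 of the 9 enzymes were lower after DOX and none was higher. The falls ran from 2.06 on the log2 scale for Eno1 to 4.21 for Aldoa, and only Hk2 stayed under the 2-fold threshold. The median log2 fold change of the 9 genes was -2.91, against -0.94 for all 6760 genes tested. By the same rule (an adjusted p under 0.05 in limma's moderated test and a change over 2-fold), 48.2% of all genes tested were lower in the DOX hearts, 3257 genes, and 92 genes were higher. With quantile normalization the same test called 1203 genes lower and 507 higher, and with the median expressed gene of each array subtracted 1224 lower and 952 higher. Of the enzymes 6 and 7 remained lower under these scalings, without Ldha and Ldhb in one and without Eno1 in the other.

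The first steps of the pathway behaved unequally. Hk2, the insulin-regulated hexokinase of muscle, had 0.31 (median; lowest -0.04, highest 0.69) on the DOX arrays and 1.27 (0.34 to 1.47) on the saline arrays. The groups overlapped, through the array labelled saline 2, which was the lowest of the saline hearts. The log2 fold change was -0.84 ± 0.147 (SE; adjusted p = 3.06e-05), which is 1.79-fold and under the threshold. On 7 of the 9 DOX arrays Hk2 did not exceed the background limit, the level that 2.5% of the probes not expressed exceed, so its fall is measured against background. Pfkm, the muscle isoform of phosphofructokinase, had 2.37 (1.90 to 3.32) in the DOX hearts and 5.33 (5.10 to 5.49) in the saline hearts. Here the groups were far apart, and the log2 fold change was -2.80 ± 0.167 (adjusted p = 1.18e-11).

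Aldoa, the aldolase of muscle and red cells, fell furthest among the members. Its level was 2.52 (1.97 to 3.11) on the DOX arrays and 6.75 (6.55 to 6.98) on the saline arrays, a log2 fold change of -4.21 ± 0.151 (adjusted p = 1.20e-14) or 18.5-fold. It ranked 35 from the lowest among the 6760 genes. The other Aldoa probe, ILMN_1367380, gave -4.34 ± 0.296. Gapdh, which couples oxidation to the capture of phosphate and is widely used as a reference gene, had 3.80 (2.99 to 4.08) in DOX hearts and 7.10 (6.88 to 7.16) in saline hearts, and was lower by 10.5-fold (log2 -3.40 ± 0.143, adjusted p = 8.91e-14). Pgk1, the first enzyme of the pathway that yields ATP, had 3.12 (2.06 to 3.65) in DOX hearts and 5.91 (5.80 to 6.05) in saline hearts, a change of -2.91 ± 0.163. None of these DOX arrays reached a saline array.

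The last steps fell as well. Eno1, the widely expressed enolase, had 0.40 (0.11 to 1.20) on the DOX arrays and 2.54 (2.29 to 2.72) on the saline arrays, a change of -2.06 ± 0.122 (adjusted p = 9.37e-12). The array labelled DOX 3, at 1.20, was the highest of the DOX hearts. Pkm, pyruvate kinase of muscle, had 0.31 (-0.03 to 0.56) in the DOX hearts and 4.29 (4.06 to 4.66) in the saline hearts. It went to the level of background: 2 of 9 DOX arrays exceeded the background limit, and all 8 saline arrays did. The log2 fold change was -4.03 ± 0.091 (adjusted p = 5.82e-17), which ranked 50 from the lowest. Eno1 exceeded that limit on 4 of 9 DOX arrays, so that on the other DOX arrays the levels of Pkm and Eno1 are only bounded by background.

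Both lactate dehydrogenase subunits were lower. Ldha, the subunit that predominates in skeletal muscle, had 3.43 (2.84 to 4.12) in DOX hearts and 5.97 (5.74 to 6.08) in saline hearts, a change of -2.47 ± 0.155 (adjusted p = 2.35e-11). Ldhb had 5.05 (3.69 to 5.37) in DOX hearts and 8.0 (7.96 to 8.06) in saline hearts, a change of -3.10 ± 0.172 (adjusted p = 4.08e-12). On the saline arrays Ldhb ranked between 14 and 24 among all 22523 probes and lay close to the brightest signal of its array, 8.53 to 8.76, with an SD of only 0.03. Every DOX array lay below every saline array for 8 of the 9 genes, all but Hk2, and this held for 63.4% of all genes tested.

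**Figure D1:**
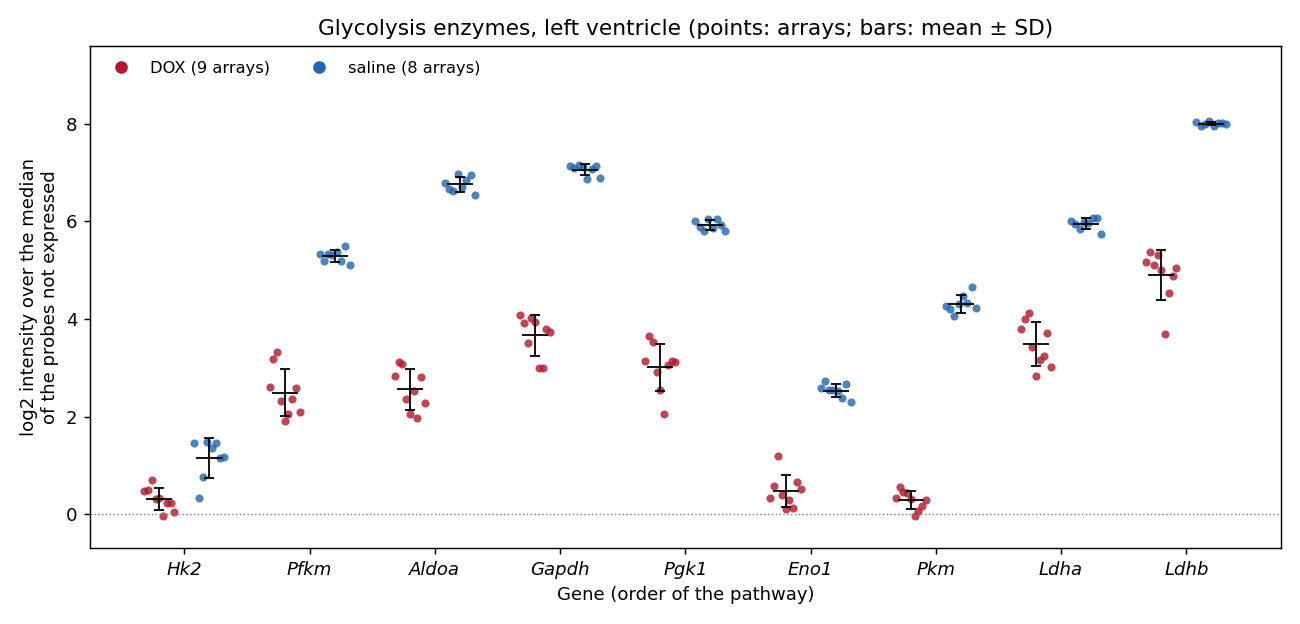
Level of the 9 enzymes on each array of the left ventricle (log2 intensity over the median of the probes not expressed), DOX arrays in red and saline arrays in blue, with mean and SD. Every DOX point lies below the saline points except for Hk2. Pkm comes down to between -0.03 and 0.56, close to background, and Eno1 to between 0.11 and 1.20.

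Set against the median expressed gene of its own array, each enzyme but Hk2 also fell in the heart. The median gene itself lay at or near background on the DOX arrays (0.222 to 0.701, with a background limit of 0.28 to 0.60), so that it could fall less than a bright probe, and a loss of signal common to all genes cannot be told apart from this result. Aldoa stood 2.10 ± 0.34 above the median gene on DOX arrays and 5.24 ± 0.13 on saline arrays (mean and SD, n = 9 and n = 8), a difference of -3.14. Pkm stood -0.17 ± 0.08 from the median gene on DOX arrays and 2.79 ± 0.15 on saline arrays. For Pfkm, Aldoa, Gapdh, Pgk1, Pkm, Ldha and Ldhb the exact permutation test, which was 2-sided throughout, gave p = 4.11e-05, the smallest that 24310 divisions of the arrays allow (0.000159 after adjustment over 27 tests). Eno1 fell by 1.0 (exact permutation p = 8.23e-05, adjusted 0.000278). Hk2 had a difference of 0.22 (exact permutation p = 0.0399, adjusted 0.0599), which did not pass.

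Markers of heart cell types moved on the same arrays, where 48.2% of all genes tested were lower and 92 genes higher. Of 9 cardiomyocyte markers, all expressed, 6 were lower and 1, Myl2, was higher, and the log2 of their summed intensities ran from 7.24 to 8.82 on DOX arrays and from 10.47 to 10.84 on saline arrays. All 5 fibroblast markers were expressed and 4 were lower, with sums of 3.45 to 4.84 after DOX and 6.86 to 8.03 after saline. Of 6 neutrophil markers 4 were expressed and 2 were higher, S100a8 and S100a9, with sums of 3.15 to 4.42 after DOX and 2.64 to 3.06 after saline, while Mpo and Csf3r were not expressed. Of the others, 2 of 4 platelet, 1 of 2 endothelial and 1 of 5 red cell markers expressed were lower, and none of 8 lymphocyte and 2 monocyte markers was called. The part of these cells in the result was not tested. In such bulk samples fewer cells of a type and less RNA per cell cannot be told apart.

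In PBMC by the sides of the gene list, 5 of the 9 enzymes were lower on the DOX side: Aldoa, Eno1, Gapdh, Pgk1 and Ldha. Hk2, Pfkm and Pkm had measured log2 fold changes of -0.95, -0.79 and -0.94, which did not pass the 2-fold threshold, and Ldhb had 0.33. Of all genes tested 54.4% were lower by the same rule (3679 genes, with 32 higher), so the members' share was close to that of the whole array. Their median log2 fold change was -1.0, against -1.12 for all genes. Quantile normalization turned the split of all genes into 588 lower and 273 higher, and subtraction of the median expressed gene into 915 lower and 1570 higher. Under both, none of the 9 enzymes was called lower and Ldhb was called higher. With p-values set against those of the probes not expressed, Eno1 alone stayed lower.

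Arrays of the DOX side scattered widely. Aldoa had 3.27 (0.63 to 4.83) on the DOX side and 5.31 (5.07 to 5.55) on the control side, a log2 fold change of -2.19 ± 0.477 (adjusted p = 0.000446). Its groups did not overlap, and the SD was 1.41 on the DOX side and 0.15 on the control side. The other Aldoa probe gave -2.35 ± 0.337. Eno1 had 0.87 (0.35 to 1.79) on the DOX side and 2.62 (2.36 to 3.05) on the control side, a change of -1.71 ± 0.191 (adjusted p = 3.88e-07), again without overlap. Every DOX-side array lay below every control-side array for 4 of the 9 members (Hk2, Pfkm, Aldoa and Eno1) and for 38.4% of all genes.

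Gapdh had 5.77 (2.75 to 6.84) on the DOX side and 6.83 (6.27 to 7.30) on the control side, with a change of -1.51 ± 0.462 (adjusted p = 0.00638). Pgk1 had 4.79 (2.35 to 5.77) on the DOX side and 5.95 (5.71 to 6.08) on the control side (-1.49 ± 0.403, adjusted p = 0.00264). The ranges overlapped for both. Ldha had 5.55 (2.70 to 6.22) on the DOX side and 5.89 (5.86 to 6.17) on the control side, and its change of -1.0 ± 0.419 (adjusted p = 0.0362) lay at the 2-fold threshold. The array labelled DOX 1 was the lowest of the side for each of these genes, and without it and the array labelled saline 6 only 2 members stayed called. Ldha lost its call when any 1 of 7 arrays was left out (labelled saline 1, 6 and 7 and DOX 1, 4, 8 and 9), with log2 fold changes between -1.16 and -0.72 over all 17 arrays left out.

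Hk2, Pfkm and Pkm had weak signals on both sides of the PBMC comparison. Hk2 had 0.04 (-0.02 to 0.29) on the DOX side and 1.09 (0.70 to 1.25) on the control side. No DOX-side array exceeded the background limit, so that Hk2 was at least 1.62-fold lower there, by the control-side mean over that limit. Pfkm had 0.27 (0.05 to 0.63) on the DOX side and 1.11 (0.75 to 1.32) on the control side, and Pkm had 0.49 (-0.09 to 1.08) and 1.33 (1.02 to 1.72) on the DOX and the control side. Adjusted p-values were 4.23e-08 for Hk2, 2.14e-06 for Pfkm and 1.12e-05 for Pkm, with measured changes that did not pass the 2-fold threshold.

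Ldhb did not follow the other enzymes in PBMC. It had 2.01 (0.09 to 4.64) on the DOX side and 1.91 (1.40 to 2.34) on the control side, a log2 fold change of 0.33 ± 0.522 (adjusted p = 0.57), and 98.0% of all genes tested had a lower fold change. The spread on the DOX side covered the whole range of the controls and more: the array labelled saline 4 had 4.64 and that labelled saline 8 had 3.49, while those labelled saline 6 and DOX 1 had 0.28 and 0.09. The array with the highest Ldhb was also the brightest of its side, with a median expressed gene of 1.46. Red cell markers moved with it only in part. Their summed level, of 5 expressed markers out of 7 listed, was 5.79 and 6.14 on the arrays labelled saline 6 and DOX 1 and 8.03 to 9.04 on the others of the side, and 6.94 to 8.79 on the control side, and none of the 5 was called. Their part in the Ldhb levels was not tested.

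**Figure D2:**
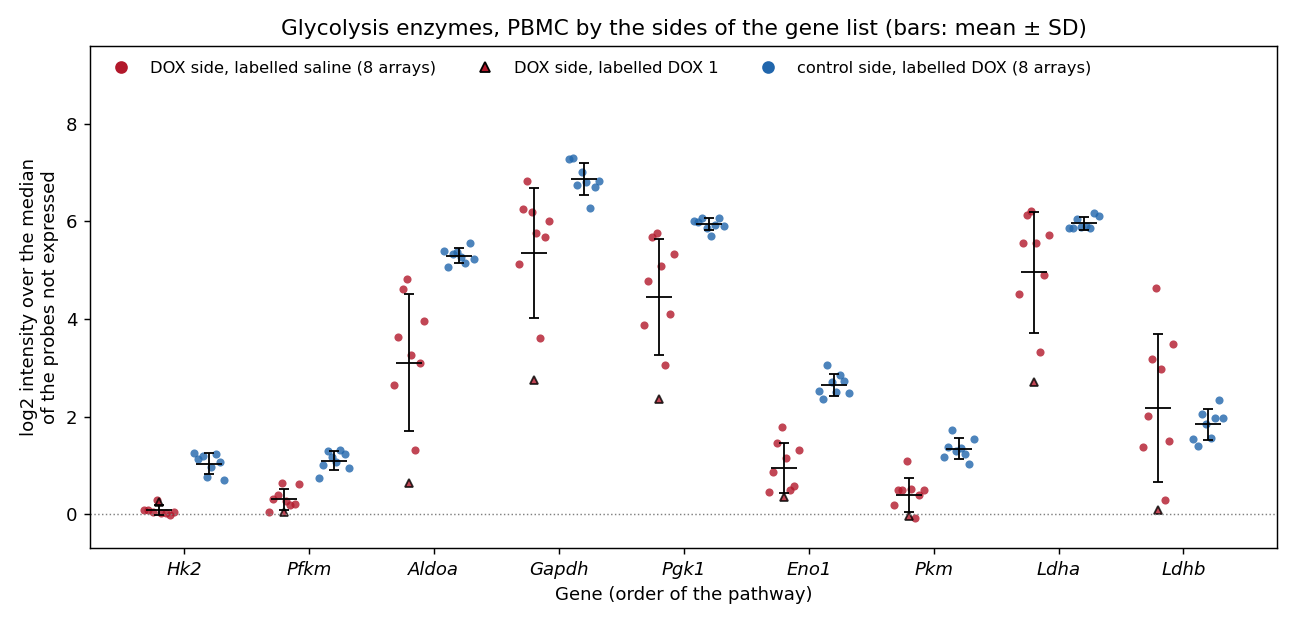
Level of the 9 enzymes on each PBMC array (log2 intensity over the median of the probes not expressed), DOX side in red and control side in blue, with mean and SD; the triangle is the array labelled DOX 1. The DOX side spreads more widely than the control side for Aldoa (0.63 to 4.83), Gapdh, Pgk1 and Ldha, and for Ldhb it extends above the controls, up to 4.64.

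Relative to the median expressed gene of the array, the enzymes in PBMC split. Gapdh (-0.17, adjusted p = 0.718), Pgk1 (-0.15, adjusted p = 0.702), Ldha (0.34, adjusted p = 0.461) and Aldoa (-0.85, adjusted p = 0.0787) had differences that did not pass the exact permutation test. Eno1 fell by 0.37 (adjusted p = 0.0138, exact permutation). Ldhb stood 1.61 ± 1.23 above the median gene on the DOX side and -0.06 ± 0.21 from it on the control side (SD, n = 9 and n = 8), a difference of 1.67 (exact permutation p = 0.00296, adjusted 0.00571). Pfkm and Pkm were higher on this scale by 0.55 and 0.40 (adjusted p of 0.00111 and 0.00287, exact permutation). On the DOX side they exceeded the background limit on only 5 and 6 of 9 arrays, and Hk2 on 0 of 9, so that these differences are set in part by background and the value of Hk2 (0.39) shows no rise. With quantile normalization Eno1, Pfkm and Pkm had -0.01, 0.03 and 0.07 and no longer passed, and Hk2 turned to -0.36. By label, Ldhb had a difference of -1.92 on this scale (exact permutation, adjusted p = 0.00074).

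Blood cell markers differed between the sides as well, where 54.4% of all genes tested were lower on the DOX side and 32 genes higher. All 8 lymphocyte markers with a probe were lower on the DOX side, with sums of 5.31 to 8.61 on the DOX side and 8.61 to 9.18 on the control side. Of the 4 neutrophil markers expressed 3 were higher, with sums of 5.82 to 7.88 on the DOX side and 2.82 to 4.56 on the control side, and Mpo and Csf3r were not expressed. Of 2 monocyte markers expressed 1 was lower, with sums of 1.66 to 4.38 and 3.18 to 4.46 on the DOX and the control side. None of 4 platelet markers was called (sums 5.90 to 9.54 on the DOX side and 8.43 to 9.66 on the control side). By label 44.5% of all genes tested were higher and 52 genes lower. In the arrays labelled DOX 6 of 8 lymphocyte markers were higher. There 3 of 4 neutrophil, 2 of 5 red cell and 1 of 4 platelet markers were lower, and neither monocyte marker was called. What these cells contribute to the enzyme levels was not tested.

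By the labels the PBMC comparison turned round. Of the 9 enzymes 1, Eno1, was higher in the arrays labelled DOX and none was lower, where 44.5% of all genes were higher (3008, with 52 lower). Eno1 had 2.53 (0.35 to 3.05) on the arrays labelled DOX and 1.01 (0.45 to 1.79) on those labelled saline, a log2 fold change of 1.38 ± 0.314 (adjusted p = 0.00112). The lowest Eno1 value belonged to the array labelled DOX 1, and without that array 4 members were called higher. Without the array labelled saline 3 or saline 4 there were 2, and without that labelled saline 6 Ldhb was called lower. Aldoa had 1.36 ± 0.639 (adjusted p = 0.0655), Pgk1 0.83 ± 0.508, Gapdh 0.73 ± 0.568 and Ldha 0.36 ± 0.481. Hk2, Pkm and Pfkm had 0.88, 0.74 and 0.65 with adjusted p-values of 5.06e-05, 0.00454 and 0.00168, all under 2-fold. Ldhb was the only member with a negative value, -0.79 ± 0.496 (adjusted p = 0.163), and had 1.85 (0.09 to 2.34) on the arrays labelled DOX and 2.49 (0.28 to 4.64) on those labelled saline. The median of the members was 0.74, against 0.90 for all genes. The split of all genes was 380 higher and 293 lower with quantile normalization, and 670 higher and 1088 lower with the median expressed gene subtracted, and under both Ldhb was called lower and no member higher.

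The DOX effect differed between the tissues for most of the enzymes. With the sides of the gene list, the effect in PBMC minus that in heart was above 0 for 7 of the 9 in a fit over all 34 arrays (adjusted p under 0.05), where 23.1% of all genes tested were. The difference was 3.43 ± 0.558 for Ldhb, 3.08 ± 0.172 for Pkm, 2.02 ± 0.507 for Aldoa, 2.0 ± 0.203 for Pfkm, 1.88 ± 0.49 for Gapdh, 1.47 ± 0.454 for Ldha and 1.42 ± 0.442 for Pgk1. A positive value means that the fall was larger in the heart. On the PBMC control side Pfkm, Pkm and Ldhb averaged 1.09, 1.34 and 1.84 above background, less than their falls in the heart, so that they could not have been measured to fall as far in PBMC. The fit took all arrays as independent, although both tissues came from the same rats. The difference was not called for Eno1 (0.35 ± 0.23, adjusted p = 0.187) or Hk2 (-0.10 ± 0.176, adjusted p = 0.629). Hk2 exceeded the background limit on 2 of 9 heart DOX and 0 of 9 DOX-side arrays, and Eno1 on 4 and 8 of 9. Their control means were alike, 1.15 and 1.03 for Hk2 and 2.53 and 2.65 for Eno1 in heart and PBMC. Background thus bounds these falls, and a like response of the tissues is not shown. By label all 9 were above 0, as were 87.9% of all genes. All 9 also passed by label with a block for label and number together, taken as the rat. That same-numbered arrays of both tissues share a rat is not stated in the labels. With p-values set against those of the probes not expressed, 2 of the 7 differences by the sides still passed, those of Pfkm and Pkm, and under quantile normalization Ldhb turned to -1.27 by label.

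**Figure D3:**
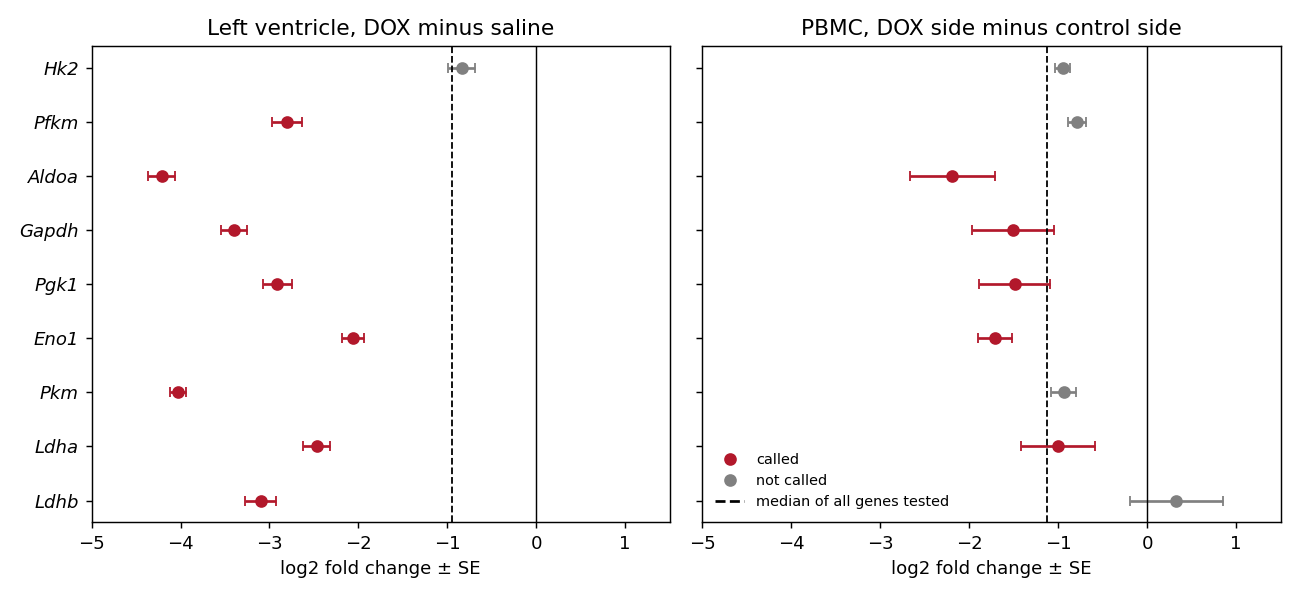
Log2 fold change with its SE for the 9 enzymes in the left ventricle (DOX minus saline) and in PBMC (DOX side minus control side); red points were called, grey points were not, and the dashed line is the median of all genes tested (-0.94 in the heart and -1.12 in PBMC). In the heart 8 enzymes lie left of the median gene, whereas in PBMC they lie on both sides of it and Ldhb lies at 0.33.

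Levels of the same probe were also compared between the tissues in the controls. The saline heart was above the PBMC control side for 4 of the 9 enzymes, where 16.0% of all genes were. Ldhb differed most (log2 difference 6.17 ± 0.406), followed by Pfkm (4.19 ± 0.148), Pkm (2.98 ± 0.125) and Aldoa (1.47 ± 0.369). These SEs come from a fit over all arrays of both tissues, the DOX groups included. The SD of Aldoa was 1.41 on the PBMC DOX side, but 0.15 on the control side and 0.15 in saline hearts. That of Ldhb was 1.52, 0.31 and 0.03. The SEs and calls thus carry scatter from arrays outside the comparison. Aldoa ran from 6.55 to 6.98 in saline hearts and from 5.07 to 5.55 on the control side. A fit on the controls alone was not run. Gapdh, Pgk1, Ldha, Eno1 and Hk2 had differences between -0.12 and 0.19, with adjusted p-values of 0.429 or more. With the arrays labelled saline as the PBMC controls, 8 of the 9 were higher in the heart and 39.1% of all genes were. Ldha was then the only member not called, at 0.71 ± 0.373 (adjusted p = 0.0896), and Ldhb had 5.57 ± 0.387. Under quantile normalization, and with the median expressed gene subtracted, 4 of the 9 were called. Ldhb, Pfkm, Pkm and Aldoa were called in both comparisons. With p-values set against those of the probes not expressed, Aldoa lost its call in both and the other 3 kept theirs.

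The balance of the lactate dehydrogenase probes differed between the groups in each tissue. Its direction in PBMC was opposite to that in the heart by the sides of the gene list and the same as in the heart by label. The Ldha level minus the Ldhb level was taken within each array. A constant added to all log2 values of an array cancels in it, but quantile normalization does not. Since these are different probes, its value does not give the ratio of the subunits, and only its change between groups is read. In the heart its median was -1.36 (-2.17 to -0.54) on the DOX arrays and -2.02 (-2.26 to -1.92) on the saline arrays. The difference in means was 0.63 (exact permutation p = 0.0051, also after adjustment over 3 tests), so that Ldhb fell more than Ldha on this scale. The groups overlapped at the arrays labelled DOX 5 and DOX 9. With quantile normalization the difference was 0.11 (exact permutation p = 0.695), and the saline arrays held Ldhb close to the top of their range.

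In PBMC the difference was 2.95 (1.58 to 3.55) on the DOX side and 4.09 (3.82 to 4.45) on the control side, -1.34 in means (exact permutation p = 0.000123, adjusted 0.00037). No array of the DOX side reached the control side. Ldhb exceeded the background limit on only 7 of the 9 DOX-side arrays, with 0.28 and 0.09 on those labelled saline 6 and DOX 1. There the difference is bounded by background. Without these arrays it was -1.35 in means (exact permutation p = 0.000155). By label it was 4.04 (2.61 to 4.45) on the arrays labelled DOX and 2.99 (1.58 to 3.55) on those labelled saline, a difference of 1.14 (exact permutation p = 0.00169, adjusted 0.00253). Here the array labelled DOX 1, at 2.61, fell among those labelled saline. The arrays labelled saline 4 and saline 8, which had the highest Ldhb, had the smallest differences of the side, 1.58 and 2.22.

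**Figure D4:**
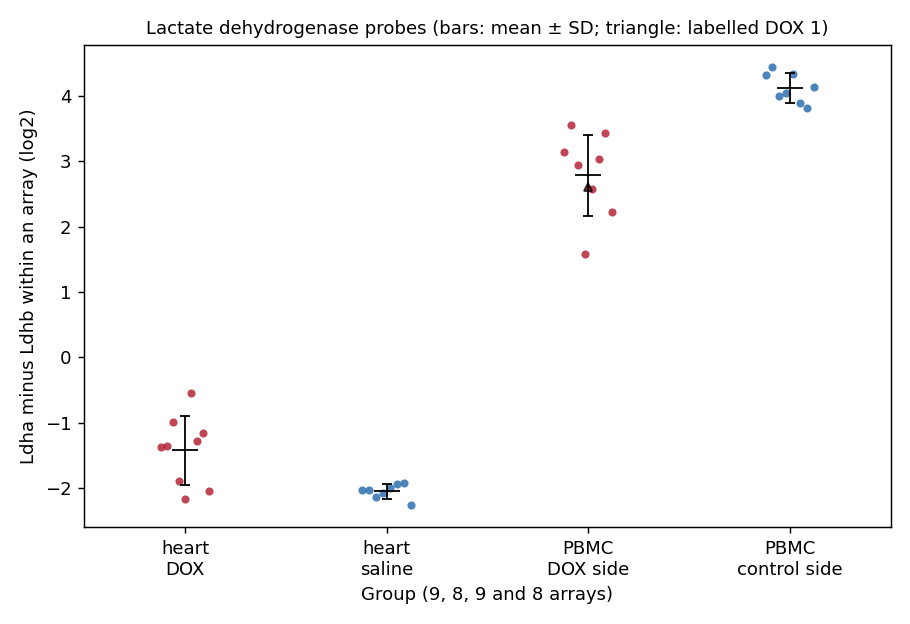
Ldha minus Ldhb within each array (log2), for heart DOX, heart saline, PBMC DOX side and PBMC control side, with mean and SD; the triangle is the array labelled DOX 1. In the heart 7 of the 9 DOX arrays lie above every saline array (mean -1.42 and -2.05) and DOX 5 and DOX 9 lie among them, and the DOX side lies below the control side in PBMC (mean 2.79 and 4.12).

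The promoters of the subunit genes are shown because the probes of Ldha and Ldhb changed unequally in both tissues, though in the heart not under quantile normalization. The hypoxia-inducible factor, a known activator of glycolytic genes, binds a core written ACGTG or GCGTG. Each window runs from 250 bases before to 50 bases after the RefSeq start site in GRCr8, for Ldha at chr1:106507842-106508141 on the plus strand and for Ldhb at chr4:177177359-177177658 on the minus strand. Capitals mark ACGTG on either strand.
Ldha: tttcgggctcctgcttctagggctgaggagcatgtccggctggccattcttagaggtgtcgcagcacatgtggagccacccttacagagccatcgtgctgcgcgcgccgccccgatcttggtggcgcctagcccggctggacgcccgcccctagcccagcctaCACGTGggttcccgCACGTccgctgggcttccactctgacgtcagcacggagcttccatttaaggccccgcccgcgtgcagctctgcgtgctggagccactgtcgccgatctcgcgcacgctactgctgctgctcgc
Ldhb: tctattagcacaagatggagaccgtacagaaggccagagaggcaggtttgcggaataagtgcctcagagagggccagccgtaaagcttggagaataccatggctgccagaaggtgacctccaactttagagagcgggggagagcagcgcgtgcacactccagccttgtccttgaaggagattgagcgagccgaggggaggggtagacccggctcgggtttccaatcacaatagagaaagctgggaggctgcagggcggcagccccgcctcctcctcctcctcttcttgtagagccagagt
The Ldha window held 3 matches of ACGTG on either strand, starting at positions -87, -86 and -73 from the start site, of which those at -87 and -86 overlap on opposite strands, and 3 of GCGTG at -14, -2 and 30. The Ldhb window held 0 of ACGTG and 1 of GCGTG, at -103. Of 33469 rat promoters of this length, 19.3% held ACGTG and 29.7% GCGTG on at least one strand. Promoters were found for 9 of the 10 enzymes, with 1 to 3 start sites each and 13 windows in all, of which 6 held ACGTG and 5 GCGTG. At the first start site ACGTG stood in Pfkm, Gapdh and Ldha, and in Hk1, Aldoa and Eno1 it stood only in the window of another start site. A match of letters is no evidence of binding.

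Regulators of glycolytic genes were read against all genes tested, of which 48.2% were lower in the heart, 54.4% lower on the PBMC DOX side and 44.5% higher by label. Hif1a, the oxygen-sensitive subunit of the hypoxia-inducible factor, averaged 0.22 on DOX and 2.40 on saline hearts (adjusted p = 8.81e-13), and since no DOX array exceeded the background limit it was at least 3.83-fold lower. In PBMC it averaged 0.91 on the DOX side and 4.55 on the control side (-3.63 ± 0.308, adjusted p = 1.95e-08). Myc, another activator of these genes, fell by 2.70 on the PBMC DOX side. Egln2, a prolyl hydroxylase that marks Hif1a for breakdown, fell by 1.35 in the heart. Max, the partner of Myc, was the exception and was higher in DOX hearts, at 1.38 against 0.06 in saline hearts (adjusted p = 8.92e-07), at least 1.87-fold, since no saline array exceeded the background limit. Of 7 regulators expressed, 3 were lower and 1 higher in the heart, and 4 were lower and none higher on the PBMC DOX side. By label, Hif1a and Myc were higher in PBMC by 3.05 and 2.63, and 4 of the 7 were called higher.

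Of 10 other enzymes of the pathway that were expressed, 7 were lower in the heart and none was higher, with a median log2 fold change of -1.93, against 48.2% lower and a median of -0.94 over all genes. Gpi, which makes fructose 6-phosphate, fell by 4.17 ± 0.118 and averaged 1.68 on DOX and 5.86 on saline arrays. Tpi1, which interconverts the triose phosphates, fell by 2.74 ± 0.116. On the PBMC DOX side 6 of the 10 were lower, with a median of -1.51, close to the 54.4% of all genes, led by Gpi (-3.70 ± 0.521, adjusted p = 5.38e-06) and Pfkp, the platelet-type phosphofructokinase (-2.32 ± 0.258, adjusted p = 3.88e-07). By label 5 were higher, where 44.5% of all genes were, led by Gpi (2.85) and Pfkp (2.04). Bpgm, which makes the 2,3-bisphosphoglycerate of red cells, was the 1 called lower by label (-2.0 ± 0.751, adjusted p = 0.0253).

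Genes that feed the pathway and drain it are given beside the same shares of all genes (48.2% lower in the heart, 54.4% lower on the PBMC DOX side and 44.5% higher by label), and no test set these lists against the rest. Of 10 expressed genes of glycogen metabolism 6 were lower in DOX hearts (median -1.67), with the largest falls in Pygm, the muscle glycogen phosphorylase (-4.32 ± 0.169, adjusted p = 3.34e-14), and Pgm1, which turns glucose 1-phosphate into glucose 6-phosphate (-3.16 ± 0.104, with 3 of 9 DOX arrays above the background limit). On the PBMC DOX side 5 of the 10 were lower (median -0.93), led by Pygl, the liver-type phosphorylase (-2.37 ± 0.427), and Pygb, the brain type (-1.62 ± 0.203), and by label 5 were higher, led by Pygl (1.68) and Pygb (1.46). Of 5 expressed transport genes 3 were lower in DOX hearts: Bsg, a chaperone of the lactate transporters, by 2.83, the transporter Slc16a1 by 1.93, and the insulin-responsive glucose transporter Slc2a4 by 1.91. In PBMC 2 of the 5 were lower on the DOX side, Slc16a1 (-1.29 ± 0.262) and Slc16a3 (-1.01 ± 0.383), and none was called by label. The 5 genes that set fructose 2,6-bisphosphate, the activator of phosphofructokinase, had a probe each and none was expressed.

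Downstream of pyruvate, 11 of 16 expressed genes of pyruvate entry and the shuttles were lower in DOX hearts (median -2.25). Mpc1, a subunit of the mitochondrial pyruvate carrier, fell by 3.28 ± 0.127, and Got1, the cytosolic aminotransferase of the malate-aspartate shuttle, by 3.22 ± 0.204. On the PBMC DOX side 8 of the 16 were lower (median -1.06, against -1.12 and 54.4% for all genes), led by Pdp1, a phosphatase that switches on pyruvate dehydrogenase (-3.03 ± 0.19, adjusted p = 8.39e-10), and Got1 (-2.32 ± 0.276). By label 6 of the 16 were higher, against 44.5% of all genes, led by Pdp1 (2.63) and Got1 (1.95). Of the pentose phosphate pathway 3 of 7 genes had a named probe, and all 3 were lower in DOX hearts and on the PBMC DOX side. Taldo1, a transaldolase, fell by 3.70 ± 0.176 in the heart and Pgls, a lactonase, was at least 7.23-fold lower there, with no DOX array above the background limit, while in PBMC Pgls fell by 2.26 ± 0.484 and Rpia, a ribose phosphate isomerase, by 1.36 ± 0.33. By label 1 of the 3, Pgls, was higher (1.61 ± 0.624, adjusted p = 0.0294).

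Within the groups the enzymes also varied together from array to array. After subtraction of the group means, the correlation of each member with the average of the others over the 17 heart arrays ran from 0.439 for Gapdh to 0.829 for Ldha. Over the 17 PBMC arrays, grouped by the sides alone, it was 0.989 for Pgk1, 0.979 for Aldoa and for Ldha and 0.929 for Ldhb, and 0.00282 for Hk2. The SDs of Pgk1, Aldoa, Ldha and Ldhb were 1.19, 1.41, 1.24 and 1.52 on the DOX side. On the control side they were 0.12, 0.15, 0.13 and 0.31, so that the correlations of these genes mainly describe the DOX side. The average of the members correlated with the median expressed gene at 0.809 in the heart and 0.676 in PBMC, so that the points share the brightness of the array. Among the other expressed genes the residuals of Flcn (r = 0.959), Mybpc3 (0.959) and Max (0.953) were most like the members' average in the heart, and those of Plaat3 (0.99), Bet1 (0.99) and Tapbp (0.989) in PBMC. These correlations describe the 17 arrays of each tissue.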

How the data were processed

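Deposited values of 34 Illumina RatRef-12 arrays were used (17 LV, 17 PBMC). RNA was amplified by whole-transcriptome amplification, and per the study's methods the authors exported intensities without background subtraction. The deposited log2 values had a median of 0 on each array. From these log2 values the median of each array's 13137 probes not expressed was subtracted here. Probes were called expressed above 0.1524, the value that divides the study's gene list, which left 9386 of 22523 probes. Of all probes 13793 had 1 gene symbol in the platform annotation and 8730 had none; each of 13337 genes was represented by the probe with the highest mean over the 34 arrays. Array intensities carry no read depth, and the number of arrays limits the precision.

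Groups were compared with limma (version 3.58.1, R 4.3.3) on log2 values, with Benjamini-Hochberg adjustment over 6760 expressed genes. Calls required both an adjusted p below 0.05 and more than a 2-fold change, or the adjusted p alone for differences between tissues in the DOX effect. The fits were run on simulated data with independent normal noise and few shifted genes. That setting lacks the background floor and the array-wide shifts of these data, so it does not test the fits under them. Single values were tested by exact permutation over arrays. Tests on Ldha minus Ldhb were adjusted over 3 comparisons and those on levels over the median gene over 27, since Hk1 had no probe. Each PBMC comparison was made by the sides of the gene list and by label. The columns of the study's own estimates in that list served only to establish its grouping. Of the raw intensities 34 columns carry numbers that match no sample label and were not used. Per the study's methods each of the 34 samples is 1 tissue of 1 rat, and repeat arrays were run for some rats. Both tissues of a rat were treated as independent samples in fits over both tissues.

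All members were named. Of each other gene list the called genes with the 2 largest falls and the 2 largest rises were named per comparison, and of the expressed genes outside the members the 3 whose residuals correlated best with theirs. Slc2a4 and the single marker genes were named after their values were seen. The members and lists were chosen with earlier results of these data known. Alternatives were other scalings, filters, probe rules and weights, p-values set against the probes not expressed, a replicate block, and leaving out arrays. Promoters are from RefSeq (GRCr8), matched by symbol. Figures were drawn with matplotlib 3.10.9 and tests computed with scipy 1.17.1.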

Additional observations from a re-analysis of the deposited data

Results flagged for a closer look

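Of 60 groups of arrays looked at, 12 held a value set apart from the rest of its group by Dixon's criterion, which chance gives in about 1 in 20 groups. Of these, 9 belonged to the PBMC array labelled DOX 1 among the arrays labelled DOX. It was the lowest there for Pfkm (0.05), Aldoa (0.63), Gapdh (2.75), Pgk1 (2.35), Eno1 (0.35), Pkm (-0.04), Ldha (2.70) and Ldhb (0.09), and its Ldha minus Ldhb was 2.61. In the grouping of the gene list, where this array stands with those labelled saline, none of its values was set apart. Among the PBMC arrays labelled saline, Hk2 was set apart on saline 4 (0.29). In the DOX hearts, Eno1 was set apart on the array labelled DOX 3 (1.20) and Ldhb on that labelled DOX 6 (3.69).

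The DOX effect differed between the tissues by limma's test of the difference itself. By the sides of the gene list, PBMC minus heart was 2.0 for Pfkm, 2.02 for Aldoa, 1.88 for Gapdh, 1.42 for Pgk1, 3.08 for Pkm, 1.47 for Ldha and 3.43 for Ldhb. By label it was 1.72 for Hk2, 3.44 for Pfkm, 5.57 for Aldoa, 4.12 for Gapdh, 3.74 for Pgk1, 3.45 for Eno1, 4.76 for Pkm, 2.83 for Ldha and 2.32 for Ldhb. The differences by label carry the choice of PBMC grouping with them, since 16 of 17 PBMC arrays change side.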

How the results depend on the processing

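The heart results held best: with any 1 array left out, all 153 values of single enzymes kept direction and call, as did 76 of 81 under the other settings. Quantile normalization, subtraction of the median expressed gene and the adjusted p alone called 1710, 2176 and 5822 genes in the heart, and with the median gene subtracted Hk2 was 0.22. By the sides of the gene list in PBMC, 145 of 153 values were kept with 1 array left out and 60 of 90 otherwise. By label these were 147 of 153 and 66 of 90. The causes were not tested. The precision is limited by the number of arrays and by background, which Hk2, Pkm and Eno1 reach in DOX groups. On the PBMC DOX side Pfkm and Ldhb also exceeded the background limit on only 5 and 7 of 9 arrays.

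By the sides in PBMC, the number of enzymes called lower was 0 with quantile normalization, 0 with the median gene subtracted, 8 by adjusted p alone, 1 with p-values set against the probes not expressed and 2 without the arrays labelled saline 6 and DOX 1, and 1 enzyme, Ldhb, was called higher with quantile normalization, and 1, again Ldhb, with the median gene subtracted. Quantile normalization called 861 genes and the probes not expressed 1993. With the median gene subtracted, Hk2 turned to 0.39, Pfkm to 0.55, Pkm to 0.40 and Ldha to 0.34, and with quantile normalization Ldha turned to 0.31.

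By label in PBMC, 1 enzyme was called lower with quantile normalization and 1 with the median gene subtracted, and 0 were called higher under both and with p-values set against the probes not expressed. There were 2 called higher with the mean over probes, 3 with array weights, 4 by adjusted p alone and 2 without the arrays labelled saline 6 and DOX 1. The genes called numbered 673 (quantile), 1758 (median gene), 4825 (adjusted p alone) and 382 (probes not expressed). With the median gene subtracted Hk2 turned to -0.26, Pfkm to -0.49, Gapdh to -0.41, Pgk1 to -0.30, Pkm to -0.40 and Ldha to -0.78, and with quantile normalization Pfkm to -0.03, Aldoa to -0.03, Gapdh to -0.11, Pgk1 to -0.24, Eno1 to -0.06, Pkm to -0.15 and Ldha to -0.56.

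For PBMC minus heart by the sides, p-values set against the probes not expressed left 2 enzymes and 598 genes, and Hk2 was 0.17 with the median gene subtracted and 0.00 with array weights. By label, 1 enzyme was called lower with quantile normalization (Ldhb, -1.27) and 1 with the median gene subtracted (Hk2, -0.48), and 3391 genes were called against the probes not expressed. For control heart minus the PBMC control side, adjusted p alone called 5118 genes and the probes not expressed 1277. In that comparison Pgk1 was 0.48 (quantile), 0.36 (median gene), 0.02 (values as deposited) and 0.03 (array weights), Eno1 was 0.36 (quantile) and 0.26 (median gene), and Ldha 0.49 (quantile), 0.37 (median gene) and 0.03 (as deposited). Against PBMC labelled saline, 4 enzymes were called with quantile normalization, 4 with the median gene subtracted and 3 against the probes not expressed, with 4684 genes by adjusted p alone and 1009 against the probes not expressed, and Ldha was -0.22 with the median gene subtracted.

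With quantile normalization, Ldha minus Ldhb in the heart was 0.11, and levels over the median gene turned to -0.07 for Hk2 in the heart, -0.36 for Hk2 and 0.08 for Pgk1 by the sides, and 0.47 for Hk2, -0.07 for Aldoa and -0.10 for Eno1 by label. With 1 array left out, the enzymes called higher by label numbered 1 to 4 and those called lower 0 to 1. Over the median gene, Aldoa by label was -0.04 to 0.57, and by the sides Gapdh was -0.34 to 0.13 and Pgk1 -0.30 to 0.08. Hk2 in PBMC minus heart was -0.15 to 0.01, and in control heart minus the PBMC control side Ldha was -0.03 to 0.02 and Pgk1 -0.05 to 0.00.

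The replicate number does not pair saline with DOX arrays, which come from different rats. The correlation of deviations of same-numbered arrays was -0.143 to 0.146 in the heart, with 1 of 8 pairs over 0.1, and -0.417 to 0.78 in PBMC by label, with 5 of 8. With the number as a replicate block, 8 enzymes were lower in the heart and 5 by the sides in PBMC, and 1 was higher by label. The fits over both tissues took label and number together as the block. In these, 9 enzymes differed between tissues by label, and 8 differed between control heart and PBMC labelled saline, a fit chosen after seeing the data. All 5 counts equal those without a block, while by the sides in PBMC Hk2 gained its call (-1.01) and Ldha lost it (-0.60). Ldha minus Ldhb differed by 0.71 in the heart, -1.36 by the sides and 1.12 by label under the block. For tissue differences by the sides the block was not run.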
